A study of Mus musculus with 3 samples.

Results

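The genes described here are 10 genes of the contractile and actin-binding machinery, namely Tagln, Acta2, Actg2, Cnn1, Cnn2, Tpm1, Tpm2, Myl9, Actn1 and Des. They were chosen by name and with earlier results of these data known, so a comparison with all genes describes them and tests nothing. Every probe set whose only gene symbol in the platform annotation is one of them was read. This gave 21 probe sets of the 34945 with a single symbol, for 10 of 18193 genes. Of these, 14 probe sets of 8 genes had a mean log2 signal of at least 6.31 over the arrays, the median of all values, which served as the filter on low levels. Actg2 and Myl9 did not pass it on any probe set.

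The samples were embryoid bodies, which are clusters of embryonic stem cells that differentiate in suspension, of mouse strain 129S7/SvEv Brd-Hprt b-m2, collected on day 7. All 3 groups carried human BRCA1, a tumour suppressor of DNA break repair. The WT bodies carried its wild-type form and the MI bodies M1652I. By the series design the RQ bodies carried R1699Q, while that array's own label reads R1669Q. Before the bodies were formed, feeder cells had been left to attach to gelatin and the unattached cells were used. The labels do not say how many stem cell lines or cultures stand behind each group. From each group 6 ug of total RNA was labelled for 1 array, so no value has a replicate check, the number of arrays limits the precision, and "higher" and "lower" refer to these arrays alone. The bodies hold many cell types, and fewer cells of a type cannot be told apart from less RNA per cell.

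Smooth muscle cells contract when myosin II pulls on actin filaments. Acta2 and Actg2 encode the smooth muscle actins, tropomyosins (Tpm1, Tpm2) lie along the filament, calponins (Cnn1, Cnn2) and transgelin (Tagln) bind and stabilise it, alpha-actinin (Actn1) crosslinks it, Myl9 is a regulatory light chain of myosin II, and Des forms the intermediate filaments of muscle. Many of these genes are known targets of serum response factor (SRF), which binds a DNA element called the CArG box and is driven by cofactors that sense free actin. In early embryos several of them are also made outside muscle, wherever cells spread and build stress fibres.

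The CArG box consists of 2 C, then 6 letters that are each A or T, then 2 G, and it reads alike on both strands. RefSeq windows from 250 bases before to 50 bases after a gene start (GRCm38.p6) were on hand for 8 of the 10 genes. None was on hand for Tagln or Actg2, so those genes were not searched. The box was found in 2 of these 8 windows, those of Cnn2 and Myl9, and in 1.63% of all 32851 windows. With 1 of the 6 middle letters allowed to be G or C, the Acta2 window held 2 matches and the Myl9 window a further one, making 3 of 8 windows with a match against 9.98% of all windows. The 10 genes were listed as contractile and SRF-regulated genes, so a share above that of all windows was built into the choice. It is no finding about them. A match describes letters and not binding. The stretches are shown because they set a gene that was far lower in both mutants (Cnn2) beside one that was moderately lower in RQ (Acta2) and one with no readable level (Myl9). Capitals mark the box, which in Acta2 is the first of the matches with 1 letter off. The second Acta2 match starts 34 bases before the gene start, where the printed stretch ends within it, and the further Myl9 match starts 99 bases before.
Cnn2, chr10:79988499-79988598, plus strand: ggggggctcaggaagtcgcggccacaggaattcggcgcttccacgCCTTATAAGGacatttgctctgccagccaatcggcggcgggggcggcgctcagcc
Acta2, chr19:34255403-34255502, minus strand: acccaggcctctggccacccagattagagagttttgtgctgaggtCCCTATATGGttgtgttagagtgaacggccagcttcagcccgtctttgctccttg
Myl9, chr2:156775258-156775357, plus strand: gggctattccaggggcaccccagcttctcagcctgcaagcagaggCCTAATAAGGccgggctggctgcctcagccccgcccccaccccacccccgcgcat
The box starts 56 bases before the annotated gene start in Cnn2, 84 bases before it in Acta2 and 161 bases before it in Myl9.

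The values are deposited log2 signals. All arrays had a mean of 6.60, but values were less spread on MI (SD 1.06) than on the other two (SD 1.17). Well measured genes were therefore lower on the MI array as a rule. The median difference of MI from WT was 0.10 for genes at mean levels of 6 to 7, -0.22 at levels of 8 to 9 and -0.36 at levels of 9 to 10, while that of RQ from WT was 0.06 at levels of 8 to 9. Each difference is therefore also given after correction for signal level, which subtracts a smooth curve of the difference against the level. The 18 hybridization spike probe sets had a median difference from WT of -0.80 in MI and -0.64 in RQ. They ranged from -1.48 to -0.36 in MI and from -1.38 to -0.42 in RQ, so all read lower than on the WT array. Whether this offset has a part in the differences of the 10 genes was not tested. No probe set was used as a check of the human BRCA1 genotype.

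**Figure D1:**
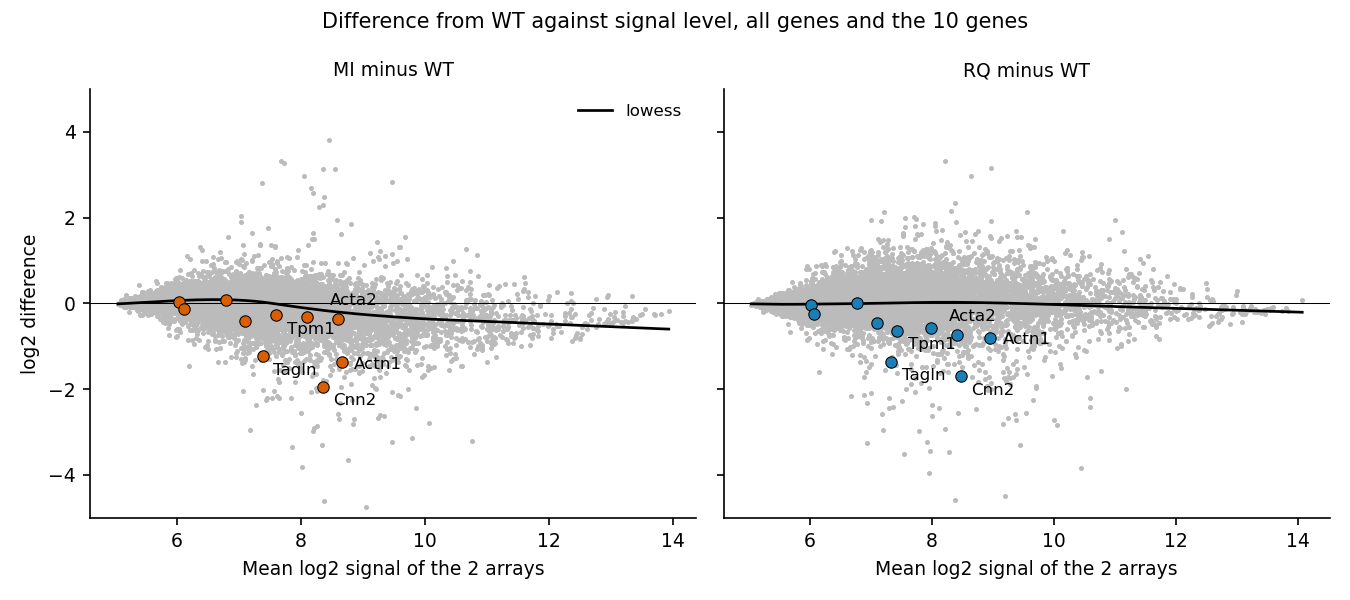
Log2 difference from WT against the mean log2 signal of both arrays for MI (left) and RQ (right), with all genes in grey, the lowess curve in black and the 10 genes as coloured points. The curve bends below 0 at high levels on the MI array, and Cnn2, Tagln and Actn1 lie below it in both panels.

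Of the 8 genes past the filter, 7 lay below WT in MI, where 41.9% of all 12023 genes past the filter did, and 7 in RQ, against 48.2%. The exception was Cnn1 in both. With the level correction Cnn1 turned to -0.01 in MI, too close to 0 to give a direction. All 8 were then below 0 there, as were 5830 of all 12023 genes. None of the 8 was as much as 2-fold higher. In MI 3 of the 8 were at least 2-fold lower (Cnn2, Tagln and Actn1), where 2.58% of all genes past the filter were. In RQ 2 of the 8 were at least 2-fold lower (Cnn2 and Tagln), against 1.49% of all genes. At a limit of 1.5-fold, 5 of the 8 were lower in RQ (4.28% of all genes), with Actn1, Acta2 and Tpm1 joining them. The 8 had a median difference of -0.39 (MI) and -0.69 (RQ), against 0.05 and 0.01 over all genes. After the level correction the same genes were past 2-fold, the medians were -0.37 and -0.71, and the background was 1.78% in MI and 1.51% in RQ. The 2 comparisons share the WT array.

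Over the 14 probe sets past the filter, WT was the highest array for 12 and MI for 2, where over all 18761 probe sets past the filter WT was highest for 28.0% and MI for 38.9%. RQ was the lowest array for 10, MI for 3 and WT for 1, against 31.9%, 33.0% and 35.1%. A 2-fold lower signal was read by 4 of the 14 probe sets in MI and by 4 in RQ, against 2.78% and 1.75% of all.

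**Figure D2:**
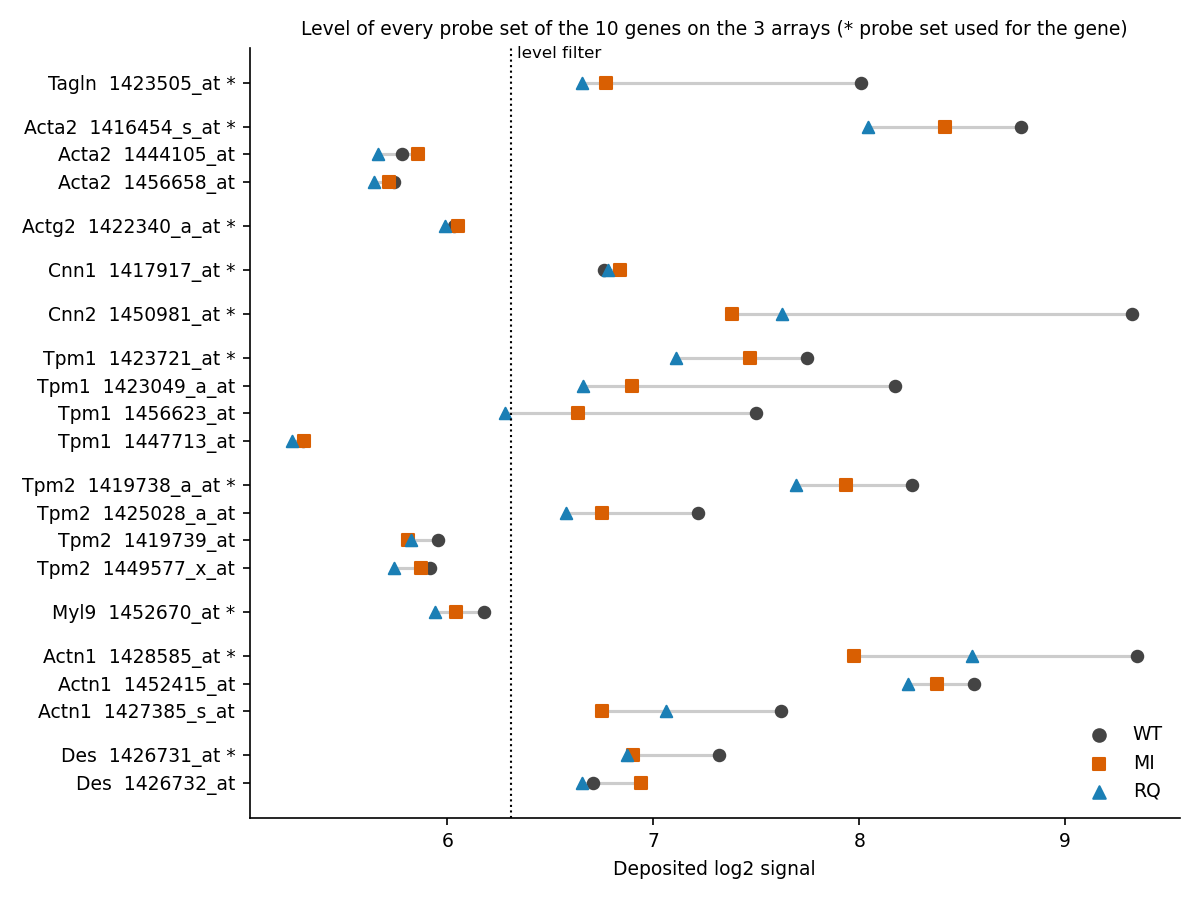
Deposited log2 signal of each of the 21 probe sets on the WT (circle), MI (square) and RQ (triangle) array, with the level filter of 6.31 as a dotted line. WT lies to the right for Tagln, Cnn2, Tpm1, Tpm2 and Actn1, whereas Actg2, Cnn1 and Myl9 lie close together on the 3 arrays.

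Among the filament-stabilising genes, Cnn2, the calponin found in both smooth muscle and other cells, had the largest difference. Its only probe set (1450981_at) gave 9.32 on the WT array, 7.38 on MI and 7.62 on RQ. WT stood apart, and the mutants lay close to each other. This is 3.84-fold lower in MI and 3.25-fold lower in RQ than in WT, and after the level correction the log2 differences were -1.78 and -1.72. Tagln, also called SM22 alpha, is an early marker of smooth muscle and of cells with stress fibres. Its only probe set (1423505_at) gave 8.01 on the WT array, 6.77 on MI and 6.65 on RQ, or 2.36-fold and 2.56-fold lower. Both mutant values were close to the filter, where signals are compressed towards background, so the ratio may be understated. The correction left Tagln at -1.27 in MI and -1.37 in RQ. Cnn1, the calponin of differentiated smooth muscle, gave no such reading, with a WT value of 6.76, an MI value of 6.84 and an RQ value of 6.78 on its only probe set. Its sign in MI (0.08) turned with the level correction (-0.01), so no direction is given for it.

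The smooth muscle actins could be read through 1 probe set. Acta2 (1416454_s_at) gave 8.79 on the WT array, 8.42 on MI and 8.04 on RQ. The arrays were thus in the order WT, MI, RQ, and RQ was 1.68-fold below WT. The MI difference of -0.37 shrank to -0.17 after the level correction and to -0.07 with the arrays quantile-normalized again. With the arrays centred on their medians it was -0.43. The RQ difference of -0.75 was -0.77 after the correction. The name of this probe set ends in _s_at, a suffix for sets that may match several transcripts. The other 2 Acta2 probe sets lay below the filter, at 5.64 to 5.86 on the 3 arrays. Actg2, the enteric smooth muscle actin, gave 6.03 on the WT array, 6.05 on MI and 5.99 on RQ, all below the filter, so no difference was readable.

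The tropomyosins were lower on both mutant arrays on every probe set past the filter, but by unequal amounts. For Tpm1, the probe set with the highest mean (1423721_at) gave 7.74 on the WT array, 7.47 on MI and 7.11 on RQ. Another (1423049_a_at) gave 8.17 on the WT array, 6.90 on MI and 6.66 on RQ, and 1456623_at read 7.50, 6.63 and 6.28. All 3 placed WT highest and RQ lowest. Against WT they differed by -0.27, -1.27 and -0.86 in MI and by -0.63, -1.51 and -1.22 in RQ. Whether Tpm1 was 2-fold lower thus depended on the probe set, and the one used in the counts was the least changed. Tpm1 makes several transcripts by alternative splicing, and which of them each probe set reads was not examined here. The remaining probe set lay at 5.25 to 5.30 and gave no reading. For Tpm2, the best measured probe set (1419738_a_at) gave 8.26 on the WT array, 7.94 on MI and 7.69 on RQ, and another (1425028_a_at) read 7.22, 6.75 and 6.58. Differences of the pair were -0.32 and -0.47 in MI and -0.56 and -0.64 in RQ. The remaining 2 Tpm2 probe sets lay below the filter.

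Actn1, the alpha-actinin of stress fibres and focal adhesions, was, like Cnn2, lower in MI than in RQ on its best measured probe set. That set (1428585_at) gave 9.35 on the WT array, 7.97 on MI and 8.55 on RQ, which is 2.60-fold below WT in MI and 1.74-fold below it in RQ. After the level correction the differences were -1.17 and -0.82. Another set (1427385_s_at) kept the same order, with WT at 7.62, MI at 6.75 and RQ at 7.06. The last (1452415_at) did not, with 8.56, 8.38 and 8.24, and its MI difference of -0.18 was 0.00 after the correction. The size of the difference therefore depended on which probe set was read, and with the mean of the 3 sets it was -0.81 in MI, short of 2-fold.

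The remaining genes gave little. Myl9 gave 6.18 on the WT array, 6.04 on MI and 5.94 on RQ, below the filter on each array, although its promoter window holds the CArG box shown above. Des (1426731_at) gave 7.32 on the WT array, 6.90 on MI and 6.87 on RQ, differences of -0.41 and -0.45. Its other probe set (1426732_at) read 6.71, 6.94 and 6.65, with differences of 0.23 in MI and -0.06 in RQ. The Des probe sets thus disagreed in direction for MI and in size for RQ.

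**Figure D3:**
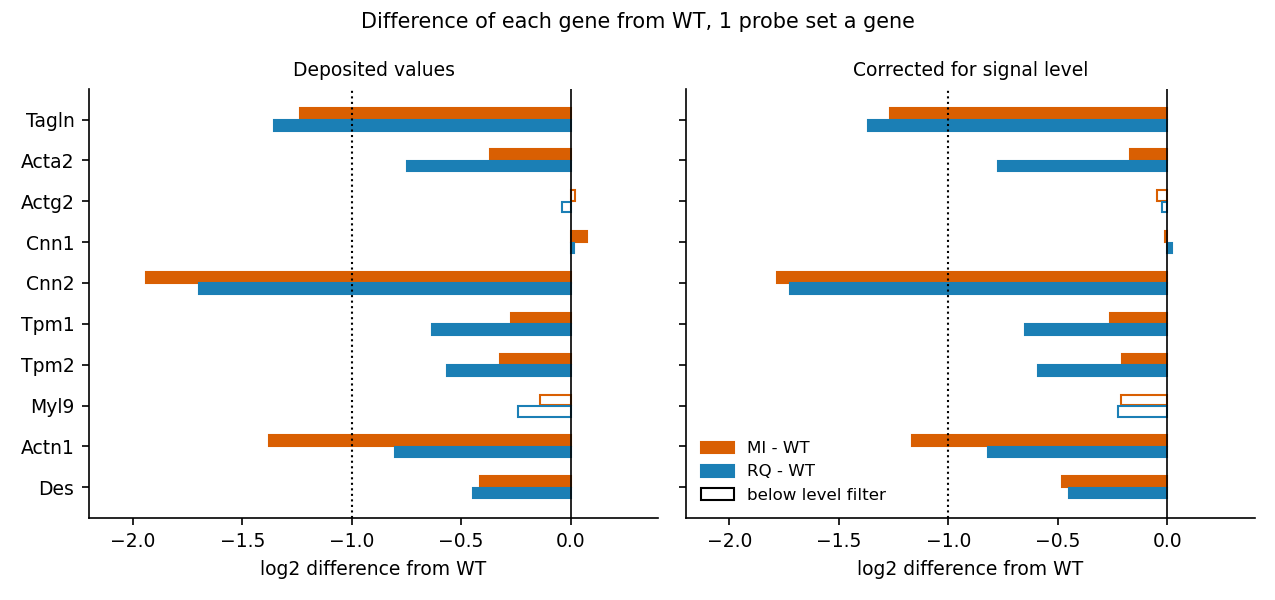
Log2 difference from WT of each gene, 1 probe set a gene, for MI (orange) and RQ (blue), with deposited values on the left and level-corrected values on the right. Open bars are genes below the filter and the dotted line marks 2-fold. Cnn2 and Tagln pass 2-fold in both mutants and Actn1 in MI, and Acta2 in MI shrinks from -0.37 to -0.17 with the correction.

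The RQ and MI arrays can also be set side by side without WT. None of the 8 genes differed 2-fold between them, where 2.10% of all genes were 2-fold higher and 0.499% 2-fold lower in RQ. The median difference of RQ from MI was -0.09, and 0.00 after the level correction. Individual genes went both ways. After the correction Acta2 differed by -0.57, Tpm2 by -0.35 and Tpm1 by -0.34, which places them lower in RQ, while Actn1 differed by 0.37 and Cnn2 by 0.21. Tagln, at -0.02, and Des, at 0.05, were close on the 2 arrays.

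Relatives of the 10 genes were read from 11 lists of 69 genes, of which 67 were on the arrays and 55 passed the filter. At the 2-fold limit, 1 of the 55 was higher and 9 were lower in MI, and 0 were higher and 5 lower in RQ. The backgrounds over all genes were 2.58% lower in MI and 1.49% in RQ, and the related genes lay above them in the lower direction. For the higher direction the backgrounds were 0.524% in MI and 1.70% in RQ. The lists, like the 10 genes, were chosen with earlier results known, so this excess is described and was not tested. The medians of the 55 were -0.02 and -0.06, close to 0, so the middle of the lists did not differ as that of the 8 genes did. After the level correction 7 genes were 2-fold lower in MI and 5 in RQ, against 1.78% and 1.51% of all genes.

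Among close relatives, 1 of 2 other tropomyosins was 2-fold lower in each mutant (0 in MI after the level correction). Of the other calponin and transgelin genes 1 of 3 was 2-fold lower in MI (0 after the correction) and 0 in RQ, and of the other alpha-actinins 0 of 3 in either. Tpm4, a tropomyosin of non-muscle cells, gave 10.37 on the WT array, 9.04 on MI and 8.73 on RQ, with corrected differences of -0.99 and -1.64. Tpm3, named after its values were seen, read 9.57, 9.71 and 10.10. Tagln2, the widely expressed transgelin, read 10.28, 9.24 and 9.38, but its MI difference of -1.04 was -0.70 after the correction and -0.26 on another probe set. Actn4, the other non-muscle alpha-actinin, was close to WT in RQ (0.02), and its MI difference of -0.35 was 0.03 after the correction. Of the 4 other actins 0 were past 2-fold. Actg1, a cytoplasmic actin, read 13.13, 12.65 and 12.64, and its MI difference turned from -0.48 to 0.06 with the correction. Acta1, the skeletal muscle actin, came nearest, with WT at 7.20, MI at 6.33 and RQ at 6.21. It too was named after its values were seen, and both mutants were near the filter.

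In the myosin II list 2 of 6 genes past the filter were 2-fold lower in MI and 0 in RQ. Myl12b, a regulatory light chain of non-muscle myosin, gave 9.74 on the WT array, 8.12 on MI and 9.36 on RQ, so the low array was MI. Myh9, the heavy chain of non-muscle myosin IIA, read 11.33, 9.86 and 10.48, and its 4 probe sets past the filter differed by -1.92 to -0.06 in MI and by -1.25 to -0.36 in RQ. In the list of other smooth muscle genes, Csrp1, a LIM protein of smooth muscle and other cells, was the only one of 6 past 2-fold from WT. It read 8.23, 7.09 and 7.38. Vim, the mesenchymal filament related to Des, went the other way in MI, with a WT value of 8.05, 10.89 on MI and 7.75 on RQ. None of the other 4 genes of its list was past 2-fold.

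Of SRF and its cofactors, all 6 passed the filter and 0 were past 2-fold from WT on deposited values, with median differences of 0.27 in MI and 0.05 in RQ, and Mrtfa, the actin-sensing cofactor, gave 7.41 on the WT array, 7.60 on MI and 7.65 on RQ. Elk1, a ternary complex factor that binds beside SRF and was named after its values were seen, came nearest, with WT at 6.48, MI at 7.46 and RQ at 6.51. Its MI difference of 0.98 was 0.90 after the level correction and 1.02, past 2-fold, with the arrays quantile-normalized again, but 0.14 on its other probe set past the filter. Of the cytoskeletal SRF targets, 3 of 10 were 2-fold lower in MI and 2 in RQ, and the medians of -0.41 and -0.68 were near those of the 8 genes. Ccn2, a matricellular protein, read 8.51, 6.76 and 6.08. Its relative Ccn1 read 7.71, 7.46 and 6.22, so it was low in RQ alone, and its 4 probe sets differed from WT by -1.49 to -0.24 there. Fhl1, a LIM protein, read 9.31, 8.01 and 8.52, and its other probe set differed by 0.12 in MI. Flna, the actin crosslinker filamin A, read 8.06, 6.91 and 7.48. Of the immediate early targets 5 of 7 passed the filter. In MI their median was -0.57, with 4 of 5 below WT and 1 at least 2-fold lower, and in RQ it was 0.12, with 2 below WT, both at least 2-fold lower. Fos read 7.70, 6.55 and 6.28, and Junb read 7.29, 6.72 and 6.08, lower in both mutants but past 2-fold in both for Fos only. The other 3, named after their values were seen, differed by 0.46 in MI and 0.25 in RQ for Egr1, and by -0.92 and 0.12 for Ier2. Mcl1 differed by -0.03 in MI, which turned to 0.40 with the level correction, and by 0.33 in RQ. The TGF-beta list covers a pathway that induces several of the 10 genes, and 5 of its 9 genes passed the filter. None of the 5 was past 2-fold from WT, and Skil, a feedback target, read 10.17, 9.57 and 10.67. Tgfbi, named after its values were seen, lay below the filter on its mean and was not counted. It read 5.98 on the WT array, 6.96 on MI and 5.93 on RQ. MI exceeded WT on each of the 4 Tgfbi probe sets, with the smallest gap 0.40 and the largest 0.99.

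**Figure D4:**
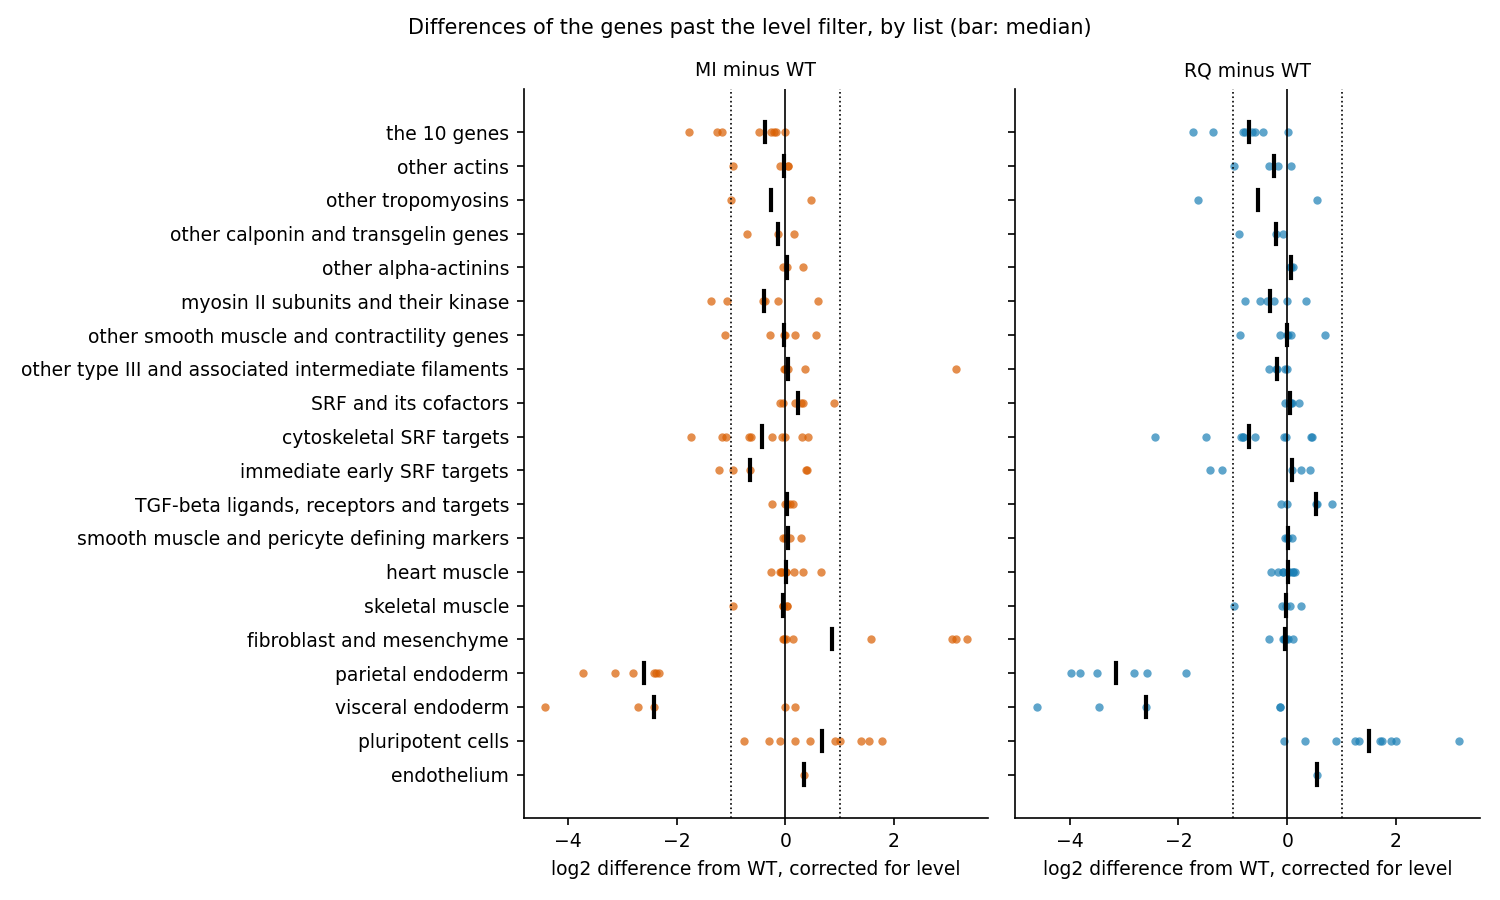
Level-corrected log2 difference from WT of each gene past the filter, by list, for MI (left) and RQ (right), with the median as a black bar and 2-fold as dotted lines. The 10 genes (8 shown) and the cytoskeletal SRF targets spread to the left of 0, the defining smooth muscle markers stay near 0, and both endoderm lists reach beyond -2.

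The name smooth muscle was not borne out by its defining markers. Of 7 such markers, Myh11, Lmod1 and Cspg4 lay below the filter on their mean. The 4 past it were low and alike on the arrays, such as Myocd (WT 7.04, MI 7.39, RQ 7.14) and Smtn (6.44, 6.52 and 6.42). Their summed signal, on a linear scale over all 7, came to 598 for WT, 655 for MI and 599 for RQ, and 0 were past 2-fold in either mutant. Of the heart muscle list 9 of 16 genes passed the filter, 0 were past 2-fold, and the summed signal was 1460, 1622 and 1441. Of the skeletal muscle list 5 of 9 passed, 0 were past 2-fold, and the sum was 862, 850 and 808. These muscle sums take in genes below the filter, which have no reading here. Their likeness thus does not show that the amount of muscle cells was alike. The genes are therefore called actin-binding genes here, not markers of muscle.

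Markers of other cells moved between the same arrays. Of the parietal endoderm list, 6 of 7 genes passed the filter and all 6 were at least 2-fold lower in each mutant. Over all genes past the filter, 2.58% were so in MI and 1.49% in RQ. Its summed signal came to 12711 for WT, 1620 for MI and 1492 for RQ, and Thbd lay below the filter. Lama1, at 6.11 on the MI array and 5.98 on RQ, passed the filter through WT alone. Of the visceral endoderm list 3 of 5 genes past the filter (Cubn, Lrp2 and Dab2) were 2-fold lower in each mutant. Afp and Ttr, also past it, differed by 0.24 and 0.08 in MI and by -0.14 each in RQ. The sums were 3240, 630 and 531, with Cubn the highest of the list on the WT array (10.67), so they mainly follow the genes that fell. Cubn, at 6.08 on the MI array and 6.09 on RQ, passed the filter through WT alone, as did Lrp2, at 6.10 and 5.89. Amn and Apoa1 lay below the filter on their mean. Amn read 6.94 on the WT array, 5.47 on MI and 5.35 on RQ, and its differences of -1.47 and -1.59 were not counted. For genes below the filter on both mutant arrays, being counted thus depended on how far WT lifted the mean. The fibroblast and mesenchyme list had 4 of 8 genes 2-fold higher in MI and 0 in RQ, with sums of 1160, 4277 and 1085, while Col1a1, Lum, Thy1, Twist1 and Lox lay below the filter. Over all genes past the filter, 0.524% were 2-fold higher in MI and 1.70% in RQ. S100a4, at 6.02 on the WT array and 5.93 on RQ, passed the filter through MI alone. Thus Cnn2, Tagln and Actn1 were lower on the MI array, on which Dcn, S100a4 and Vim were higher. Of the 10 pluripotency genes, 3 were 2-fold higher and 1 lower in MI (4 and 0 after the level correction), and 7 were higher in RQ, with sums of 10665, 12647 and 23532. The shares of all genes given above, 0.524% and 1.70% for higher, are the background here too. Nr0b1, at 6.20 on the WT array and 6.18 on MI, passed the filter through RQ alone. Of the endothelial list only Pecam1 passed, with 0 past 2-fold. The part of these cell types in the differences of the 10 genes was not tested.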

How the data were processed

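Messenger RNA was measured on 3 Affymetrix mouse arrays, 1 for each genotype. The values deposited by the authors are log2 signals, 45101 on each array. Per the submitters' processing notes, Partek and RMA were used, with no version or order named. RMA subtracts background, aligns the arrays and summarises probes, and whether it ran with further arrays is unknown. Gene symbols came from the platform's annotation, and the entrez identifiers of all 10 genes matched the same symbols in RefSeq (GRCm38.p6). The genes, lists and alternatives were chosen with earlier results of these data known.

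Differences are of log2 values of 2 arrays, computed with Python 3.11.15 and pandas 2.3.3. For gene counts, each gene was read through its best measured probe set (highest mean of the 3 arrays), and genes with a mean at or above log2 6.31, the median of all values, were kept. The level correction was a lowess curve of the difference on the mean level (span 0.3, 3 robustness iterations, statsmodels 0.14.6), fitted on all probe sets. The counting was tested on simulated data. With 1 array per genotype nothing could be tested and there are no p-values. Named beside the 10 genes are genes of each list of related genes. These are up to 4 that were at least 2-fold from WT on either mutant array, or else the one with the highest level. A plan to name up to 3 abundant genes of each marker list was not followed throughout. The 5 genes nearest to Tagln and the 5 nearest to Acta2 in their pair of differences from WT are also named. Genes named beyond this were chosen after their values were seen. Alternatives were 2 other scalings, 3 filters, 2 choices of probe set and 2 fold limits. Scanner output, presence calls and dates of scanning were not analysed here.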

Additional observations from a re-analysis of the deposited data

How the results depend on the processing

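No paired analysis was possible because each genotype has 1 array. The counts and medians of the 8 genes kept their direction against WT under each scaling, filter and choice of probe set that was run. The median difference of MI from WT was -0.83 without probe sets that may match several transcripts, which leaves fewer genes past the filter, and that of RQ from WT was -0.47 when all probe sets of a gene were averaged, which takes in sets with little signal. At a limit of 3-fold 1 gene was apart from WT in MI and 1 in RQ, and at 1.5-fold 5 were apart in RQ. The median of RQ against MI, -0.09, lay near 0 under each setting. Of 147 values of single genes under other settings, 35 moved by over 0.1 and none past 2-fold turned its sign. Counts over all genes moved with scaling. In MI 63 genes were 2-fold higher and 310 lower than in WT, and these were 81 and 214 after the level correction and 105 and 191 after quantile normalization again. For RQ against MI, 253 higher and 60 lower became 148 and 78 and then 116 and 102. With no detection calls, a gene below the filter has no reading here, which does not show that it is absent.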

Other observations

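Some relatives of the 10 genes differed between the mutants themselves. Of the 55 related genes past the filter, the RQ array exceeded MI by 2-fold or more for 4 and fell short of it by 2-fold or more for 2, and all 6 were named here after their values were seen. Over all genes past the filter, 2.10% were 2-fold higher in RQ than in MI and 0.499% 2-fold lower. After the level correction 1 of the 55 was higher and 2 were lower, against 1.23% and 0.649% of all genes. Higher in RQ were the myosin light chain Myl12b (1.24, and 0.97 after the level correction), the TGF-beta feedback gene Skil (1.10 and 0.76), the immediate early gene Ier2 (1.04 and 1.05) and Ppp1r12a (1.01 and 0.89), the targeting subunit of the phosphatase that relaxes smooth muscle. The 4 probe sets of Ppp1r12a past the filter differed between RQ and MI by 0.03 to 1.01, so its size depended on the probe set. Lower in RQ were Vim (-3.14 and -3.45, with its 3 probe sets at -3.84 to -2.91) and Ccn1 (-1.24 and -1.15, with its 4 probe sets at -1.28 to -0.23).

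The genes whose pair of differences from WT lay nearest to that of Tagln were Mpzl2, at a distance of 0.02 log2 units, Snrnp48 (0.06), Zbed6 (0.09), Vkorc1 (0.11) and Fos (0.11). Nearest to Acta2 were Dnajc18 (0.01), Cnih4 (0.02), Gstm5 (0.03), Hbegf (0.04) and Habp4 (0.04). The distance uses 2 values from 3 arrays among 12023 genes past the filter.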
